A study of Mus musculus with 38 samples.

Results

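The expression of 10 genes that carry or report glucocorticoid signalling was followed in the hippocampus of 38 mice. The genes were listed by name and found in the count tables by their Ensembl identifiers, and they make up 10 of the 48709 genes counted. They are the glucocorticoid receptor Nr3c1, the mineralocorticoid receptor Nr3c2, the glucocorticoid-activating enzyme Hsd11b1, and the receptor targets Fkbp5, Sgk1, Tsc22d3, Zbtb16, Cdkn1a, Mt1 and Mt2. All 10 were among the 18232 genes that passed the filter on low counts when all mice were fitted together.

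The mice were wild type (WT) or APPPS1ΔE9, an amyloid-depositing model of Alzheimer's disease that carries mutant APP and PS1 transgenes, on a C57BL/6 background. They received placebo chow or chow with anle138b, a small molecule directed at protein aggregates, for 4 months and were analyzed at 6 months of age (the pre-plaque group) or at 10 months (the post-plaque group). The pre-plaque group held 4 mice in each combination of genotype and chow, and the post-plaque group held 5 WT placebo, 5 WT anle138b, 5 APPPS1ΔE9 placebo and 7 APPPS1ΔE9 anle138b mice. Each library was made from RNA of hippocampal tissue, so that fewer cells of a type and less RNA per cell cannot be told apart.

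Corticosterone, the main glucocorticoid of mice, enters the brain and binds both receptors, which then act on genes in the nucleus. Nr3c2 binds the hormone with the higher affinity and is abundant in the hippocampus, whereas Nr3c1 is occupied mainly at the daily hormone peak and under stress. Hsd11b1 regenerates active hormone from its inert keto form inside cells. Fkbp5, a chaperone partner that lowers the affinity of the receptor for hormone, is induced by the receptor and closes a short feedback loop. Sgk1 encodes a kinase that acts on ion channels, Tsc22d3 encodes the leucine zipper protein GILZ that mediates anti-inflammatory actions, and Zbtb16 encodes a zinc finger repressor. Cdkn1a encodes the cell-cycle inhibitor p21, and Mt1 and Mt2 encode metallothioneins, which bind zinc and copper and respond both to metals and to glucocorticoids.

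A glucocorticoid response element is a palindrome of receptor sites, and a metal response element binds the metal-sensing factor Mtf1. RefSeq promoter windows of 300 bases (250 before and 50 after a transcription start, GRCm38.p6) were found for 8 of the 10 genes, in 16 windows. The full element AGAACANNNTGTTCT, searched on both strands, was present in 3 of 32851 windows of all genes (0.00913%), and 1 of these belonged to Sgk1. A single receptor site, AGAACA or TGTTCT on the other strand, was present in 6233 of the 32851 windows and in 4 windows of Sgk1 and Tsc22d3. The metal element core, TGCACNC or TGCGCNC on either strand, was present in 25.7% of all windows and in 1 window each of Sgk1, Nr3c2, Hsd11b1, Mt1 and Mt2. A match describes the letters of a window and is not evidence of binding. The stretches below are shown because they hold the letters of the hormone and metal elements in genes whose levels are followed here, with matches in capitals.
Sgk1, plus strand, chr10:21993660-21993759: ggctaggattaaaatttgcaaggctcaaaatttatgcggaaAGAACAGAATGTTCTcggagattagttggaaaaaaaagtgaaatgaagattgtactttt
Mt1, plus strand, chr8:94178959-94179088: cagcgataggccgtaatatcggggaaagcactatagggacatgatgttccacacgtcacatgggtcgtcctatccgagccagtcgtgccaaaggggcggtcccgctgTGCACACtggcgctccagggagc
Mt2, plus strand, chr8:94172488-94172617: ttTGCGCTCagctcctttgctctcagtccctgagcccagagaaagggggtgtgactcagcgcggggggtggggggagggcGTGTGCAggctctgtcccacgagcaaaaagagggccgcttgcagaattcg
The Sgk1 match begins 189 bases before the transcript start to which its window belongs. The Mt1 match begins 23 bases before its start, and the Mt2 matches begin 128 and 50 bases before its start. The whole windows held 3 matches for Mt1 and 4 for Mt2. Mt2 and Mt1 are neighbours on chromosome 8, and 5514 bases lie between the end of Mt2 and the start of Mt1 in GENCODE M21.

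Library totals were between 15847985 and 31895808 counts. The genotype labels were checked with App, of which the transgenic mice carry an added mutant form. App was between 3226 and 4314 CPM (counts scaled to a common library size by TMM) in the 20 APPPS1ΔE9 mice and between 1504 and 1808 CPM in the 18 WT mice. That check includes the 4 pre-plaque WT placebo mice (at most 1795 CPM), for which a second label names the transgenic genotype. Xist was high in 12 mice although the study describes males, and those mice lay mostly in the WT groups. Sequencing lane also differed with group, so that no pairwise genotype comparison had a value within a lane. All 8 neuron markers were detected in every library. In 9 post-plaque libraries the oligodendrocyte markers were low, as described with Hsd11b1 and the receptors.

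Per kilobase of exon, Mt1 was the most abundant of the 10 genes and Cdkn1a the least. The medians over the 38 mice were 132 CPM per kb for Mt1, 31.9 for Nr3c2, 31.1 for Mt2, 15.3 for Sgk1, 13.7 for Nr3c1, 12.9 for Zbtb16, 11.8 for Tsc22d3, 7.97 for Fkbp5, 7.09 for Hsd11b1 and 1.34 for Cdkn1a. The ranges of neighbours in that order overlapped, except that Mt1 lay above Nr3c2 and Cdkn1a lay below Hsd11b1 in every mouse. The mineralocorticoid receptor was thus above the glucocorticoid receptor in this scale, and the least abundant gene still had at least 65 reads in each library.

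The genes differed in how far mice of the same group spread. The SD of log2 CPM within groups was 0.104 for Fkbp5 and 0.121 for Nr3c1, under the median of 0.194 over the 18232 genes tested, and was highest for Hsd11b1 (0.382) and Sgk1 (0.292). Fkbp5 changed by 1.5-fold from its lowest to its highest mouse, and Hsd11b1 by 2.63-fold. The spread of Hsd11b1 and Sgk1 was larger in the post-plaque mice, where the SD was 0.476 and 0.36, against 0.158 and 0.134 in the pre-plaque mice. The plot of each mouse shows these patterns gene by gene.

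**Figure D1:**
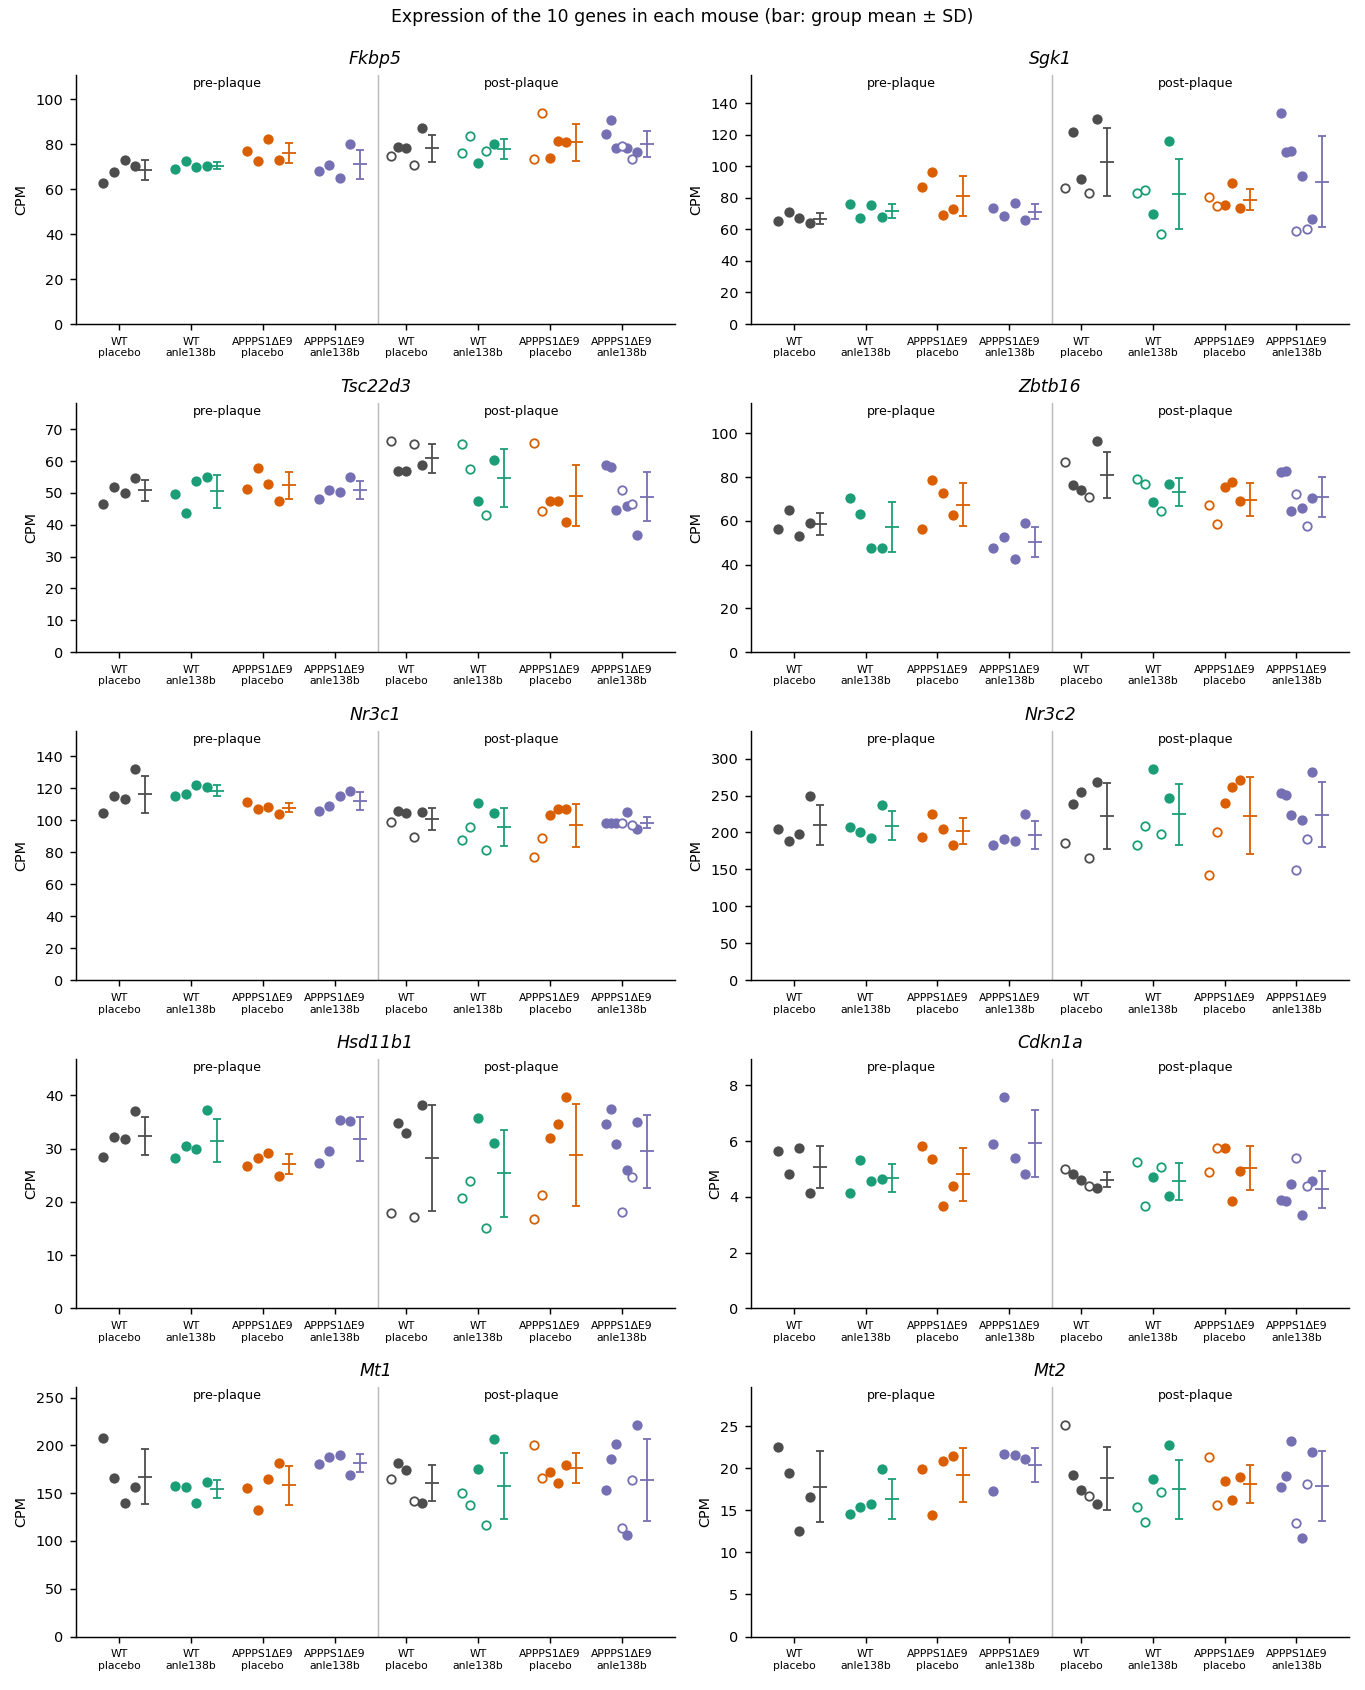
CPM of each of the 10 genes (y axis, linear and from 0) in each mouse of the 8 groups (x axis), with the group mean ± SD as bars and open circles for the 9 post-plaque libraries with low oligodendrocyte markers. Hsd11b1 and Nr3c2 split in the post-plaque groups between open and filled circles, whereas Fkbp5 stays between 62.6 and 94.0 CPM throughout.

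Does anle138b itself move these genes in WT mice? In the pre-plaque WT mice, 0 of the 10 genes passed an adjusted p of 0.1 (edgeR's quasi-likelihood test with Benjamini-Hochberg adjustment over all genes), against 0% of the 16766 genes tested. At an unadjusted p under 0.05 the count was also 0 of 10, against 1.85% of all genes. Fkbp5 was between 62.6 and 72.9 CPM in the 4 placebo mice and between 68.9 and 72.5 CPM in the 4 anle138b mice, and the groups overlapped. Its log2 difference was 0.04, with a 95% confidence interval from −0.08 to 0.17. The intervals of Sgk1 (−0.03 to 0.23), Tsc22d3 (−0.17 to 0.16) and Nr3c1 (−0.11 to 0.18) were of similar width, and those of Zbtb16, Cdkn1a, Mt1 and Mt2 were wider, with Mt2 reaching from −0.51 to 0.28.

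In the post-plaque WT mice, likewise, 0 of 10 genes passed, against 0% of the 16986 genes tested, and 0 of 10 had an unadjusted p under 0.05, against 1.25% of all genes. Sgk1 averaged 82.2 ± 22.1 CPM (SD, n = 5) on anle138b and 102.7 ± 21.5 CPM (SD, n = 5) on placebo, a log2 difference of −0.32 with an interval from −0.75 to 0.11. Fkbp5 averaged 77.6 ± 4.42 and 78.0 ± 6.12 CPM (SD, n = 5 each), and its interval from −0.15 to 0.13 was the narrowest of the 10. DESeq2 also called 0 of the 10 genes in both WT comparisons. Of 23 other induced targets tested, 4 had a positive difference in the post-plaque WT mice. The median of the 23 was −0.20, against 0 over all genes tested, with 0 past the adjusted threshold. Lane differed with chow here too, since 4 placebo libraries were in lane 3 and 1 in lane 4, and all 5 anle138b libraries in lane 4. Choroid plexus markers had a positive difference for 0 of 8 (median −0.32). The part of lane and of these markers was not tested.

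Between placebo-fed genotypes at 6 months, Sgk1 and Fkbp5 averaged higher and Hsd11b1 lower in APPPS1ΔE9 than in WT mice, but none passed the adjusted threshold. The count was 0 of 10, against 0.0715% of 16774 genes, while 3 of 10 had an unadjusted p under 0.05, against 11.1% of all genes. Sgk1 was 65.2, 71.3, 67.2 and 63.9 CPM in the 4 WT mice and 86.6, 96.4, 69.4 and 72.8 CPM in the 4 APPPS1ΔE9 mice. All but 1 of the APPPS1ΔE9 mice lay above the highest WT mouse. The log2 difference was 0.28 (SE 0.09, edgeR adjusted p = 0.36).

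Fkbp5 followed in the same direction at smaller size. It was 62.6, 67.6, 72.9 and 70.4 CPM in WT and 76.8, 72.6, 82.3 and 72.9 CPM in APPPS1ΔE9 mice. The lowest 2 APPPS1ΔE9 mice lay within the WT range. This is a log2 difference of 0.16 (SE 0.064, edgeR adjusted p = 0.417).

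Hsd11b1, the activating enzyme, went the other way. It was 28.4, 32.2, 31.9 and 36.99 CPM in WT and 26.7, 28.2, 29.1 and 24.8 CPM in APPPS1ΔE9 mice, and 1 APPPS1ΔE9 mouse lay above the lowest WT mouse. The log2 difference was −0.25 (SE 0.084, edgeR adjusted p = 0.36). Nr3c1 differed by −0.11 with an interval from −0.25 to 0.04 and Nr3c2 by −0.06 with an interval from −0.25 to 0.14. In the same comparison 3 of 4 WT and 0 of 4 APPPS1ΔE9 mice had high Xist, and the WT libraries were in lane 4 and the APPPS1ΔE9 libraries in lane 5, so lane and genotype cannot be told apart. Marker lists moved in this comparison too, with 0 of their genes past the adjusted threshold. Choroid plexus markers were lower for 8 of 8 genes (median −1.14 on the log2 scale), since 3 of 4 APPPS1ΔE9 and 1 of 4 WT libraries were low in them. Of the 8 markers each, 8 oligodendrocyte markers were lower (median −0.15), 6 astrocyte markers were lower (median −0.14) and 6 microglial markers were higher (median 0.25). All 8 thalamus markers were lower (median −0.55), with sums of 149.4 to 201.2 CPM in APPPS1ΔE9 and 147.9 to 310.7 CPM in WT mice. Endothelial markers were higher for 7 of 8 (median 0.16).

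The immediate early genes were higher for 10 of 10 (median 0.50), with overlapping sums of 174.4 to 571.7 CPM in APPPS1ΔE9 and 186.9 to 294.8 CPM in WT mice. Of these, 0 of 10 had an unadjusted p under 0.05, against 11.1% of all genes. They were also higher for 10 of 10 between placebo genotypes at 10 months (median 0.57, 159.9 to 646.5 against 158.3 to 294.6 CPM), where Sgk1 averaged lower. There 4 of 10 had an unadjusted p under 0.05, against 4.10% of all genes. On anle138b at 6 months, where the Sgk1 difference was −0.003, they were higher for 9 of 10 (median 0.38), and 1 of 10 had an unadjusted p under 0.05, against 5.64%. Their part in the Sgk1 values was not tested. With choroid plexus markers as a covariate the differences at 6 months on placebo were 0.295 for Sgk1, 0.16 for Fkbp5 and −0.31 for Hsd11b1. The Sgk1 difference was 0.11 with oligodendrocyte markers as a covariate, and the Fkbp5 difference was 0.058 with Y-linked expression as a covariate.

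With anle138b in both genotypes at 6 months, the metallothioneins and Cdkn1a averaged higher in APPPS1ΔE9 mice. The count past the adjusted threshold was 0 of 10, against 0.0470% of 17033 genes, and 3 of 10 had an unadjusted p under 0.05, against 5.64% of all genes. Mt1 was 158, 156, 140 and 162 CPM in WT and 181, 188, 190 and 169 CPM in APPPS1ΔE9 mice, and the groups did not overlap. The share of all genes whose groups were apart here was not counted, so this cannot be called particular to Mt1. The log2 difference was 0.24 (SE 0.058, edgeR adjusted p = 0.523). DESeq2, run as an alternative, called this gene with a log2 difference of 0.24 and an adjusted p of 0.0757. It called no other of the 10 genes here, and 42 genes in all (0.131%).

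Mt2, the other metallothionein, was 14.5, 15.4, 15.8 and 19.9 CPM in WT and 17.3, 21.6, 21.6 and 21.04 CPM in APPPS1ΔE9 mice. The highest WT mouse lay above the lowest APPPS1ΔE9 mouse. Its log2 difference was 0.32 (SE 0.106, edgeR adjusted p = 0.836), and that of Cdkn1a was 0.35 (SE 0.154, edgeR adjusted p = 0.836). Without mouse 16 of the APPPS1ΔE9 group the Cdkn1a difference was 0.20. The astrocyte markers, of which 8 of 8 were detected in every library, summed to between 4434 and 5355 CPM in the APPPS1ΔE9 and between 4343 and 4837 CPM in the WT mice, and their part in the metallothionein values was not tested. Sgk1, Fkbp5 and Hsd11b1 had differences of −0.003, 0.017 and 0.017 in these mice.

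In APPPS1ΔE9 mice at 6 months, Zbtb16 averaged lower and Hsd11b1 and Mt1 higher on anle138b than on placebo. Past the adjusted threshold were 0 of 10 genes, against 0.0529% of 17009 genes, and 3 of 10 had an unadjusted p under 0.05, against 13.1% of all genes. Zbtb16 was 56.2, 78.6, 72.5 and 62.5 CPM on placebo and 47.6, 52.4, 42.4 and 58.99 CPM on anle138b. All but 1 of the anle138b mice lay below the lowest placebo mouse. On the log2 scale the difference was −0.42 (SE 0.126, edgeR adjusted p = 0.312).

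The call for Zbtb16 depended on the tool and on 1 mouse, and with choroid plexus markers as a covariate the difference was −0.27. Those markers were low in 3 of 4 placebo and 1 of 4 anle138b libraries. DESeq2 gave a log2 difference of −0.42 with an adjusted p of 0.0705, and edgeR without the placebo mouse at 56.2 CPM gave −0.50 with an adjusted p of 0.0928. Over all genes these fits called 205 (0.652%) and 317 (1.84%), against 9 in the main fit. The mouse left out, mouse 17, was the only 1 of the 4 placebo mice high in choroid plexus markers. Hsd11b1 averaged 31.8 ± 4.08 CPM on anle138b and 27.2 ± 1.88 CPM on placebo (SD, n = 4 each), a log2 difference of 0.23 (SE 0.09, edgeR adjusted p = 0.349). Mt1 averaged 181.9 ± 9.53 and 158.4 ± 20.3 CPM (SD, n = 4 each), a log2 difference of 0.20 (SE 0.083, edgeR adjusted p = 0.362) that was 0.13 without placebo mouse 71. Sgk1 differed by −0.19 with an interval from −0.41 to 0.03, and the receptors by 0.055 (Nr3c1) and −0.038 (Nr3c2). These libraries were in lane 5 on placebo and lane 6 on anle138b.

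The comparisons above share their groups, so the values of the pre-plaque mice were also tested as a single difference of differences. In that interaction of genotype and chow, 0 of 10 genes passed, against 0% of 17404 genes, and 2 of 10 had an unadjusted p under 0.05, against 7.99% of all genes. They were Sgk1, for which the interaction was −0.28 (SE 0.12, edgeR adjusted p = 0.618), and Mt1, for which it was 0.33 (SE 0.15, edgeR adjusted p = 0.618). Without WT placebo mouse 30 the Mt1 interaction was 0.197. Group means of Sgk1 were 66.9 and 81.3 CPM for WT and APPPS1ΔE9 on placebo and 71.5 and 71.2 CPM on anle138b. The difference between the genotype effects on the 2 chows did not pass after adjustment.

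**Figure D2:**
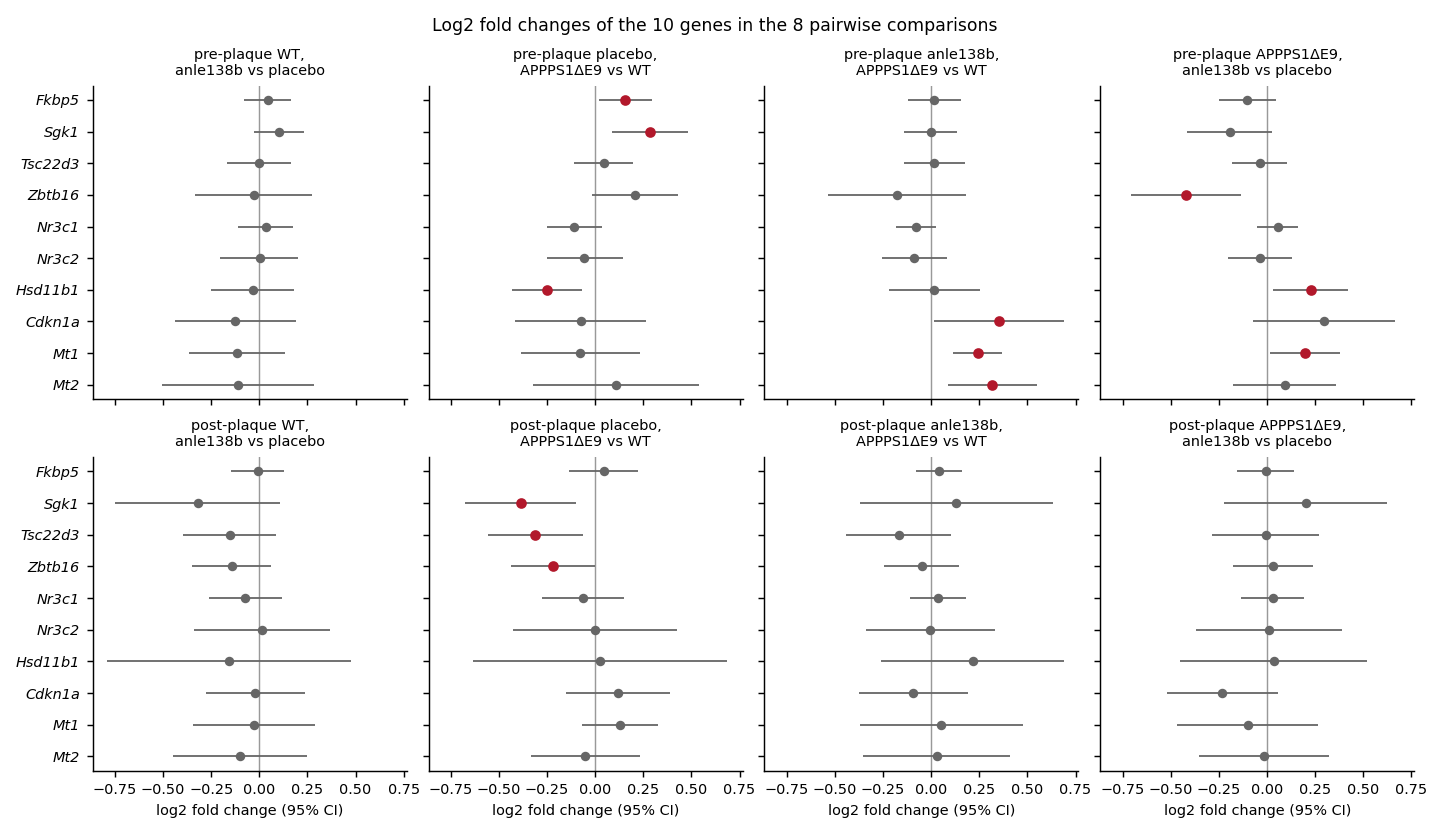
Log2 fold changes (x axis) with 95% confidence intervals of the 10 genes (y axis) in the 8 pairwise comparisons, red where the unadjusted edgeR p was under 0.05. None of the 80 values passed the adjusted threshold, and Sgk1 lies at 0.28 between placebo genotypes in the pre-plaque panel and at −0.39 in the post-plaque panel.

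Between placebo-fed genotypes at 10 months, the induced targets Sgk1, Tsc22d3 and Zbtb16 averaged lower in APPPS1ΔE9 than in WT mice. For each of them this WT placebo group had the highest mean of the 8 groups. WT mice on anle138b also averaged lower than it, at 82.2 CPM for Sgk1, 54.7 for Tsc22d3 and 73.2 for Zbtb16. Past the adjusted threshold were 0 of 10 genes, against 0.324% of 16971 genes, and 3 of 10 had an unadjusted p under 0.05, against 4.10% of all genes. Sgk1 was 86.4, 121.6, 92.0, 83.3 and 129.9 CPM in WT and 80.7, 74.6, 75.3, 89.4 and 73.7 CPM in APPPS1ΔE9 mice. All but 1 of the APPPS1ΔE9 mice lay below the lowest WT mouse. On the log2 scale this was −0.39 (SE 0.13, edgeR adjusted p = 0.77).

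Tsc22d3 (GILZ) was 66.4, 56.95, 56.88, 65.2 and 58.8 CPM in WT and 65.6, 44.4, 47.5, 47.6 and 40.7 CPM in APPPS1ΔE9 mice. A single APPPS1ΔE9 mouse, at 65.6 CPM, lay among the WT mice, and the other 4 lay below all of them. The log2 difference was −0.31 (SE 0.112, edgeR adjusted p = 0.891), and without that mouse it was −0.44 with an adjusted p of 0.0437. The fit without that mouse called 52 genes in all (0.304%). It was the only 1 of 10 fits leaving out 1 mouse that called Tsc22d3, and their values ran from −0.44 to −0.25. The mouse was singled out by its own Tsc22d3 value, so the call is not separate support for a difference. Zbtb16 averaged 69.6 ± 7.49 against 80.9 ± 10.7 CPM (SD, n = 5 each), a log2 difference of −0.22 (SE 0.099, edgeR adjusted p = 1). With Y-linked expression as a covariate, a setting chosen for the Xist values, the Sgk1 difference was −0.71 with an adjusted p of 0.0108. In that fit 14 genes (0.0825%) were called in all, against 55 without the covariate.

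Fkbp5 did not share this direction. It averaged 80.7 ± 8.34 CPM in APPPS1ΔE9 and 78.0 ± 6.12 CPM in WT mice (SD, n = 5 each), with an interval of the log2 difference from −0.13 to 0.22. Mt1 and Cdkn1a also averaged higher, by 0.13 (interval −0.07 to 0.32) and 0.12 (interval −0.15 to 0.39). Mt2 differed by −0.05 (interval −0.34 to 0.23). Hsd11b1 and Nr3c2 had differences of 0.024 and −0.001 with intervals from −0.64 to 0.69 and from −0.43 to 0.42. Of the 23 other induced targets tested, 3 had a positive difference, with a median of −0.14 against −0.002 over all genes tested, and 0 passed the adjusted threshold. The same WT placebo group was the reference of the post-plaque WT chow comparison, where 4 of these 23 had a positive difference. High Xist was found in 3 of 5 WT and 0 of 5 APPPS1ΔE9 mice, and the WT libraries were in lanes 3 and 4 and the APPPS1ΔE9 libraries in lane 5, so lane and genotype cannot be told apart.

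With anle138b in both genotypes at 10 months, the pairwise comparison with the most genes called, 0 of 10 genes passed, against 0.723% of 17151 genes. The count at an unadjusted p under 0.05 was 0 of 10, against 5.78% of all genes. Sgk1 ranged from 56.9 to 116.2 CPM in the 5 WT mice, and in the 7 APPPS1ΔE9 mice it ranged from 59.02 to 134 CPM with a median of 94.0 CPM. The groups overlapped over nearly their whole ranges, and the log2 difference was 0.13 with an interval from −0.37 to 0.63. Tsc22d3 differed by −0.17 with an interval from −0.44 to 0.10, and Fkbp5 by 0.04 with an interval from −0.08 to 0.16.

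In post-plaque APPPS1ΔE9 mice, anle138b against placebo gave 0 of 10 genes past the adjusted threshold, against 0% of 17110 genes, and 0 of 10 with an unadjusted p under 0.05, against 1.48% of all genes. Fkbp5 averaged 80.1 ± 5.74 CPM (SD, n = 7) and 80.7 ± 8.34 CPM (SD, n = 5). The interval of its log2 difference ran from −0.16 to 0.14, whereas that of Sgk1 ran from −0.23 to 0.63 and that of Hsd11b1 from −0.45 to 0.52. The interaction of genotype and chow in the post-plaque mice gave 0 of 10 genes, against 0% of 17668 genes, and 0 of 10 at an unadjusted p under 0.05, against 2.30% of all genes. Its largest value was that of Sgk1, at 0.52 with an interval from −0.10 to 1.14.

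The placebo genotype effect was then compared between ages in a single fit, since Sgk1, Tsc22d3 and Zbtb16 averaged higher in APPPS1ΔE9 mice at 6 months and lower at 10 months. For Tsc22d3 the difference at 6 months was only 0.044, with an interval from −0.11 to 0.20. The fit uses the values in which the pattern was seen, so it is not separate support for it. The difference of the effects passed for 0 of 10 genes, against 0% of 17681 genes, while 3 of 10 had an unadjusted p under 0.05, against 6.16% of all genes. For Sgk1 it was −0.67 (SE 0.179, edgeR adjusted p = 0.635). The values for Zbtb16 and Tsc22d3 were −0.43 (edgeR adjusted p = 0.705) and −0.36 (edgeR adjusted p = 0.789). Leaving out each mouse in turn kept the Sgk1 value between −0.74 and −0.58, with 0 calls. Among the 23 other induced targets, 7 had an unadjusted p under 0.05, 6 of them negative, and 0 passed the adjusted threshold.

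When each effect was averaged over all 38 mice, neither chow nor genotype moved any of the 10 genes past the adjusted threshold. For chow, 0 of 10 genes passed, against 0% of 18232 genes, and 1 of 10 had an unadjusted p under 0.05, against 4.81% of all genes. That gene was Zbtb16, at 62.9 CPM on anle138b and 69.1 CPM on placebo as averages of the group means, a log2 difference of −0.14 (SE 0.06, edgeR adjusted p = 1). The Fkbp5 difference was −0.02 with an interval from −0.09 to 0.05, the tightest bound on a chow effect among these genes.

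For genotype, 0 of 10 genes passed, against 1.46% of 18232 genes, and 0 of 10 had an unadjusted p under 0.05, against 8.91% of all genes. Fkbp5 averaged 76.98 CPM in APPPS1ΔE9 and 73.6 CPM in WT mice, a log2 difference of 0.07 with an interval from −0.004 to 0.14 and an adjusted p of 0.61. Sgk1 differed by 0.007 with an interval from −0.18 to 0.20. Nr3c1 and Nr3c2 differed by −0.05 and −0.04. Of the other genes of the pathway, 0 of 23 induced targets, 0 of 13 receptor chaperones and co-regulators, 0 of 8 genes of steroid handling and the CRH system and 0 of 6 genes of the metal response passed for genotype or for chow.

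The post-plaque mice differed from the pre-plaque mice in 5 of the 10 genes, against 61.8% of 18232 genes, by the adjusted threshold. Zbtb16, Sgk1 and Fkbp5 were higher and Nr3c1 and Cdkn1a lower at 10 months. The share of the 10 genes called was below that of all genes, so the count says nothing particular about them. The groups also differ by more than age: the running numbers in the library titles repeat between the ages, as on separate sample sheets, and choroid plexus markers were lower in the post-plaque mice for 8 of 8 markers. The libraries fell into 2 classes for these markers rather than by age alone, a division made after the values were seen. Their mean log2 CPM was between 1.57 and 3.63 in 6 of the 16 pre-plaque libraries, as in 21 of the 22 post-plaque libraries (0.65 to 3.15), and between 5.92 and 6.75 in the other 11. Ttr, the most abundant of these markers, was between 12.9 and 239.8 CPM in the 21 post-plaque libraries and 4078 CPM in the remaining one (mouse 99). In the pre-plaque mice it was between 32.3 and 654.1 CPM in 6 and between 3728 and 7503 CPM in 10. Age, library set and dissection cannot be told apart.

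Nr3c1, the glucocorticoid receptor, was lower at 10 months. It ran from 104 to 132 CPM with a median of 114 CPM in the 16 pre-plaque mice and from 77.1 to 110 CPM with a median of 98.3 CPM in the 22 post-plaque mice. All 16 pre-plaque mice lay above the post-plaque median, and 14 of 22 post-plaque mice lay below the lowest pre-plaque mouse. Those 14 mice include all 9 libraries with low oligodendrocyte markers and 5 of the other 13. The change was −0.21 on the log2 scale (SE 0.039, adjusted p = 2.18e-05), and without the 9 libraries it was −0.115 (adjusted p = 0.000859).

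Zbtb16 ran from 42.4 to 78.6 CPM with a median of 57.7 CPM in the pre-plaque mice and from 57.7 to 96.6 CPM with a median of 73.2 CPM in the post-plaque mice. A single pre-plaque mouse lay above the post-plaque median. The change was 0.34 on the log2 scale (SE 0.061, adjusted p = 1.48e-05). Fkbp5 had medians of 70.5 and 78.4 CPM and a log2 difference of 0.15 (SE 0.034, adjusted p = 0.000458), and 0 post-plaque mice lay below the lowest pre-plaque mouse.

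Sgk1 had medians of 70.3 CPM at 6 months and 84.2 CPM at 10 months, a log2 difference of 0.28 (SE 0.094, adjusted p = 0.0119). Its post-plaque mice spread to both sides, with 6 above the highest and 3 below the lowest pre-plaque mouse. Cdkn1a fell from 5.12 to 4.62 CPM as averages of the group means, a log2 difference of −0.15 (SE 0.072, adjusted p = 0.0855), and lost the call in 19 of 38 fits that left out 1 mouse. Mt1 and Mt2 had differences of −0.008 and −0.023, with intervals from −0.17 to 0.15 and from −0.20 to 0.15, and Tsc22d3 a difference of 0.055 with an interval from −0.07 to 0.18.

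With the choroid plexus markers as a covariate, 3 of 10 genes passed, against 45.7% of all genes. Zbtb16 (0.26, adjusted p = 0.0223), Sgk1 (0.37, adjusted p = 0.0361) and Nr3c1 (−0.21, adjusted p = 0.00396) kept the call. Fkbp5 did not, with a log2 difference of 0.09 and an adjusted p of 0.148, nor did Cdkn1a, at −0.09 with an adjusted p of 0.537.

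The other genes of the pathway moved in both directions between the ages, in shares that say nothing particular about them against the 61.8% of all genes called. Of 23 other induced targets tested, 6 rose and 4 fell at 10 months (43.5% called, below the share of all genes), with a median log2 difference of 0.048 against −0.015 over all genes tested. Hif3a, a hypoxia-inducible factor subunit, rose by 1.40 from 3.69 to 9.71 CPM, Plin4, a lipid droplet protein, by 0.72 and the kinase Map3k6 by 0.50. The secreted lipase inhibitor Angptl4 fell by 0.60, Pdk4, which restrains pyruvate oxidation, fell by 0.32, and the astrocyte connexin Gjb6 fell by 0.20. With choroid plexus markers as a covariate, Map3k6 (0.25, adjusted p = 0.212), Pdk4 (−0.097, adjusted p = 0.365) and Gjb6 (−0.09, adjusted p = 0.45) lost the call, and Hif3a, Plin4 and Angptl4 kept it.

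Of 13 receptor chaperones and co-regulators, 4 rose and 6 fell (76.9% called, against 61.8% of all genes). The genes that fell included Hsp90aa1 (−0.39), Fkbp4 (−0.33) and Stip1 (−0.23), which assemble the receptor in its hormone-binding state. The genes that rose included the co-activators Ncoa3 (0.34) and Ncoa1 (0.13). Among 8 tested genes of steroid handling and the CRH system, Abcb1a, an efflux pump of the blood-brain barrier, rose by 0.24, and the CRH receptor Crhr2 and the CRH-binding protein Crhbp fell by 0.82 and by 0.37. With the choroid plexus covariate Crhr2 lay at 0.26 (adjusted p = 0.204) and Ncoa1 at 0.097 (adjusted p = 0.125).

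Of 6 genes of the metal response, Slc30a3 and Slc39a14, zinc transporters, rose by 0.275 and 0.245, and Mt3, the neural metallothionein, and Slc39a10 fell by 0.23 and by 0.18. Mt3 fell from 380.9 to 324.7 CPM as averages of the group means, in the comparison in which Mt1 and Mt2 passed no test. Slc30a3 lost the call with the choroid plexus covariate, at 0.30 with an adjusted p of 0.172. Among 10 circadian clock genes, 6 rose and 1 fell (70.0% called, against 61.8% of all genes), led by Ciart (0.79), Per3 (0.66) and Per2 (0.58).

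**Figure D3:**
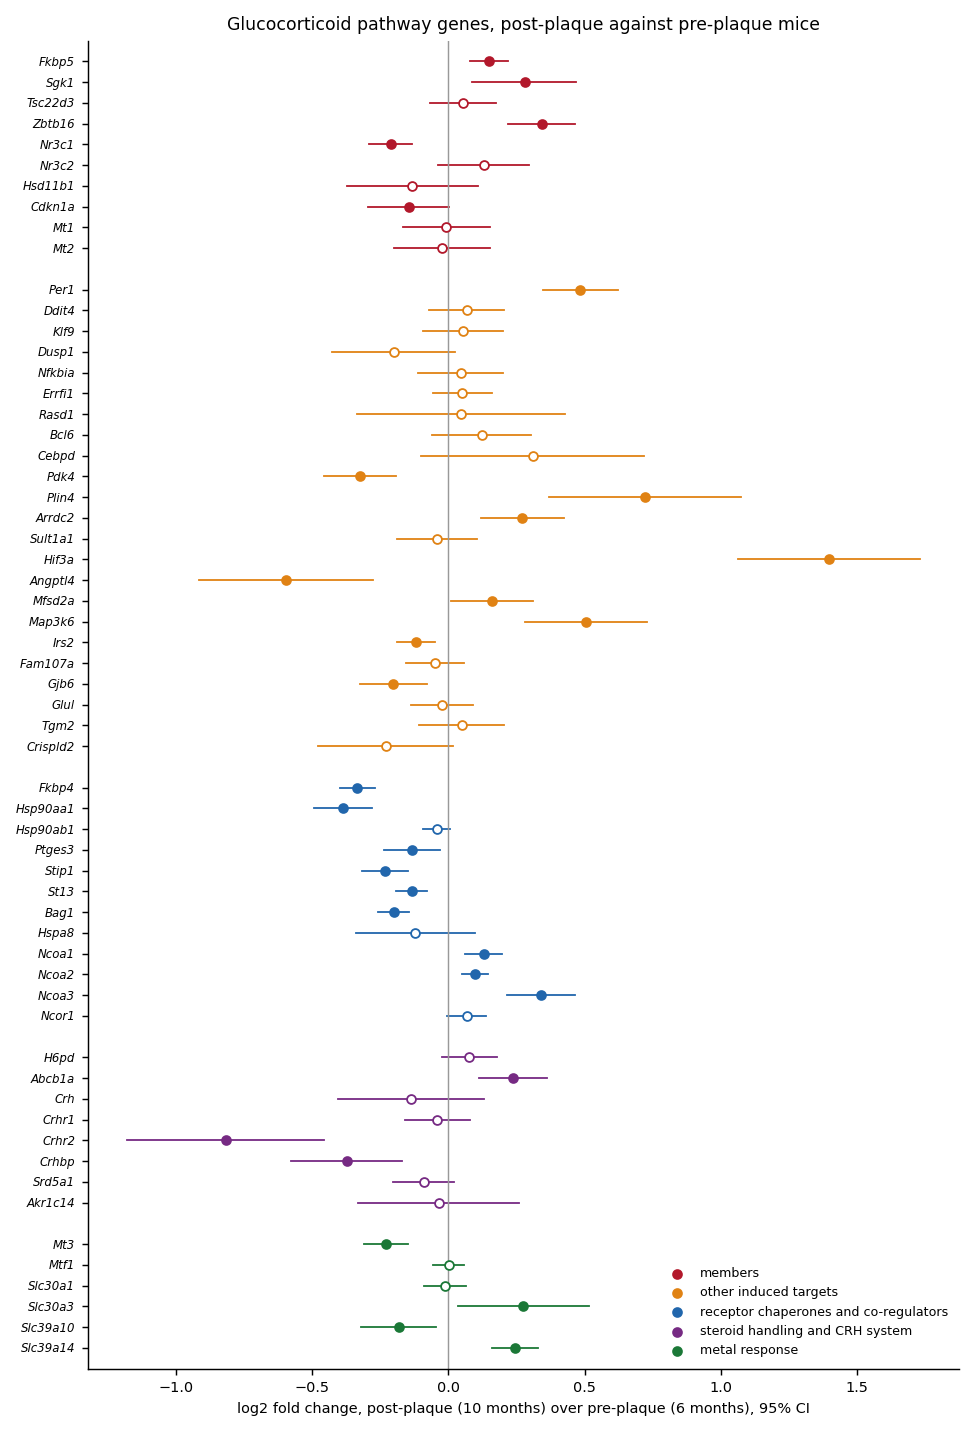
Log2 fold change of the 22 post-plaque over the 16 pre-plaque mice (x axis, 95% confidence interval) for the 10 genes and other tested genes of the pathway (y axis), coloured by list and filled where the adjusted edgeR p was under 0.1. Among the 10 genes Zbtb16 lies highest at 0.34 and Nr3c1 lowest at −0.21, and Hif3a at 1.40 lies farthest from 0.

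Hsd11b1 and both receptors were lower in a set of post-plaque libraries in which oligodendrocyte markers were low. The mean log2 CPM of 8 oligodendrocyte markers was between 7.09 and 7.77 in 9 of the 22 post-plaque libraries, between 8.16 and 8.71 in the other 13, and between 8.105 and 8.525 in the 16 pre-plaque libraries. Mog, a protein of the myelin surface, was between 22.4 and 42.2 CPM in the 9 and between 52.4 and 80.8 CPM in the 13. The 9 libraries were spread over the groups, with 2 of 5 WT placebo, 3 of 5 WT anle138b, 2 of 5 APPPS1ΔE9 placebo and 2 of 7 APPPS1ΔE9 anle138b mice. This division was made after the values were seen. The share of all genes that divide in the same way was not counted, so the division cannot be called particular to these genes.

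Hsd11b1 was between 15.1 and 24.6 CPM in the 9 libraries and between 25.97 and 39.7 CPM in the 13, with medians of 18.2 and 34.7 CPM and no overlap. The 2 classes were also apart within each of the 4 post-plaque groups. In the WT placebo group, for example, Hsd11b1 was 17.95 and 17.17 CPM in the low libraries and 34.8, 32.96 and 38.2 CPM in the others.

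Nr3c2, the mineralocorticoid receptor, showed the same division, from 143 to 208 CPM against 218 to 286 CPM, again with no overlap in any of the 4 groups. Nr3c1 ran from 77.1 to 98.8 CPM against 94.4 to 110 CPM, and was apart within 3 of the 4 groups. The targets overlapped between the classes over all 22 post-plaque mice. Fkbp5 ran from 70.8 to 94.0 CPM in the 9 libraries and from 71.6 to 90.8 CPM in the 13. Sgk1 ran from 56.9 to 86.4 CPM against 66.3 to 134 CPM, and within 2 of the 4 groups every low library lay below the others. Fkbp5, Zbtb16, Mt1 and Mt2 were apart in the same direction within 1 group each, and Tsc22d3 and Cdkn1a within 0 of 4. Tsc22d3 had the higher median in the 9 libraries, at 57.6 against 47.6 CPM, with overlapping ranges.

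**Figure D4:**
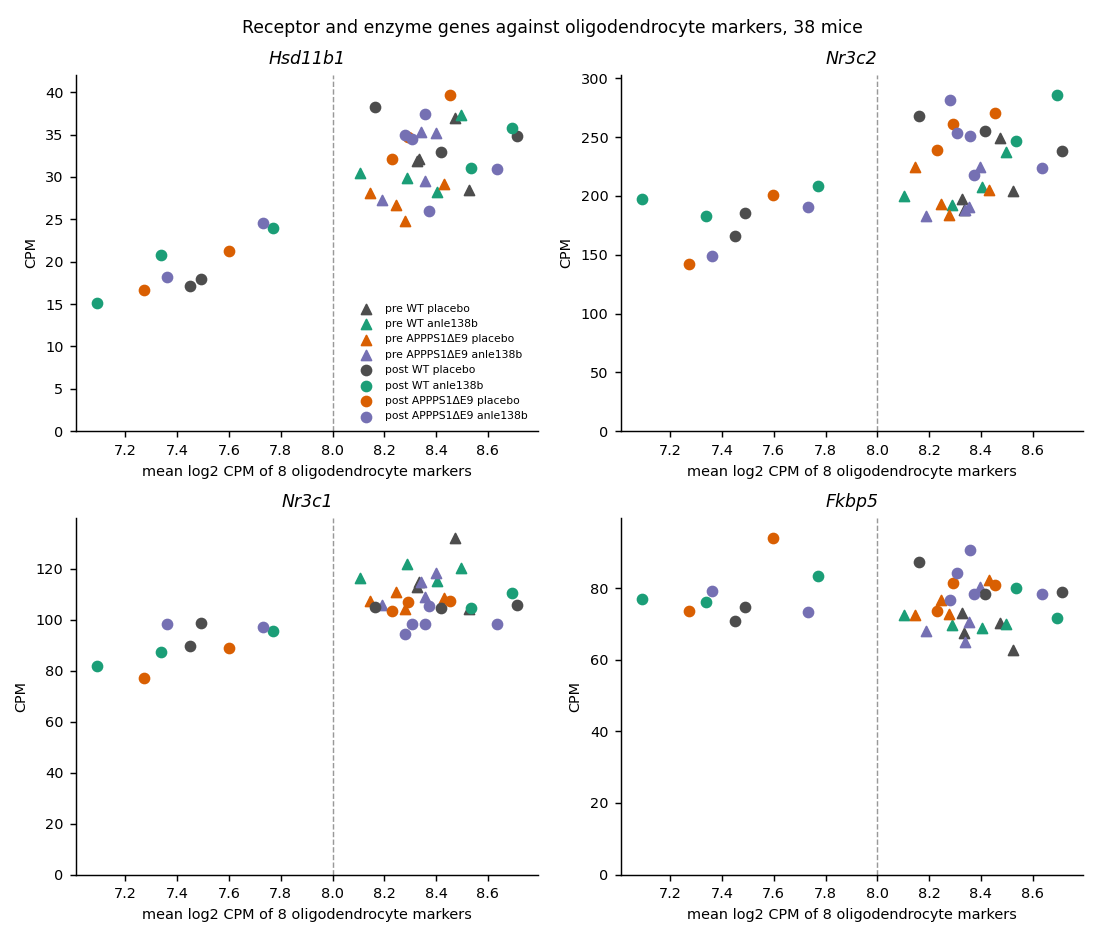
CPM of Hsd11b1, Nr3c2, Nr3c1 and Fkbp5 (y axes, linear and from 0) in each of the 38 mice against the mean log2 CPM of 8 oligodendrocyte markers (x axis), coloured by group. Hsd11b1 is lowest in the 9 libraries under a mean of 8, and Fkbp5 is level across the axis. Nr3c2 in those libraries (143 to 208 CPM) lies below the other 13 post-plaque libraries but overlaps the pre-plaque mice (183 to 249 CPM).

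As a description over the 38 mice, the deviations of log2 CPM from the group means correlated with the oligodendrocyte list at a Pearson r of 0.88 for Hsd11b1, 0.81 for Nr3c2 and 0.73 for Nr3c1. Among the targets it was 0.49 for Sgk1, 0.45 for Mt1 and 0.14 for Fkbp5. The points share library depth and dissection. At 6 months, where no library was in the low class, the values were 0.37 for Hsd11b1, 0.42 for Nr3c2, 0.17 for Nr3c1 and −0.47 for Sgk1. At 10 months they were 0.91, 0.85, 0.81 and 0.55. Over all 38 mice, a list of 8 neuron markers gave 0.86 for Nr3c2, above the oligodendrocyte value, and 0.81 for Hsd11b1. At 6 months the neuron list gave 0.82 for Nr3c2, 0.58 for Hsd11b1 and 0.45 for Nr3c1. The choroid plexus list gave −0.81, −0.59 and −0.41 for the same genes at 6 months. Both lists were thus larger in size than the oligodendrocyte list at that age. Whether cell content, the level of RNA or the dissected region sets these values was not tested.

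The 9 libraries changed the age comparison of these genes. Without them, 7 of the 10 genes passed, against 70.1% of the genes tested. Nr3c2 was then higher at 10 months by 0.33 (adjusted p = 1.87e-06), and Hsd11b1 was higher by 0.17 (adjusted p = 0.0155) where it had been −0.13 with all mice. Nr3c1 remained lower, and Sgk1 was higher by 0.42 (adjusted p = 0.000317).

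Genes of the list varied together in a few pairs rather than as a whole. Of the 45 pairs, the highest Pearson r of deviations from group means was 0.91, between Nr3c2 and Hsd11b1, and 0.74 without the 9 libraries. Many genes outside the list were closer to Hsd11b1. In a ranking of 15012 genes by this r, made after the values were seen, Nr3c2 stood at rank 170 and Nr3c1 at rank 975. The values of r in that ranking ran from 0.96 to −0.96. Mt1 and Mt2 had an r of 0.81, and 0.87 without the 9 libraries. Reads that align to both metallothioneins could be counted on either or on none. The intersection-nonempty mode of HTSeq, named in the methods, sets how reads overlapping several genes are assigned, and the handling of reads that align to several places is not given in the sources used here. Nr3c1 had an r of 0.77 with Hsd11b1 and 0.70 with Nr3c2, which were 0.41 and 0.34 without the 9 libraries.

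Among the induced targets the values were lower. Sgk1 and Tsc22d3 had an r of 0.41 over the 38 mice and of 0.69 without the 9 libraries. Fkbp5 had an r of 0.33 with Zbtb16, 0.32 with Sgk1 and 0.10 with Tsc22d3, and Sgk1 with Fkbp5 differed between the ages, at −0.49 among mice of 6 months and 0.50 among mice of 10 months. All these values describe 38 libraries that share depth and dissection.

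**Figure D5:**
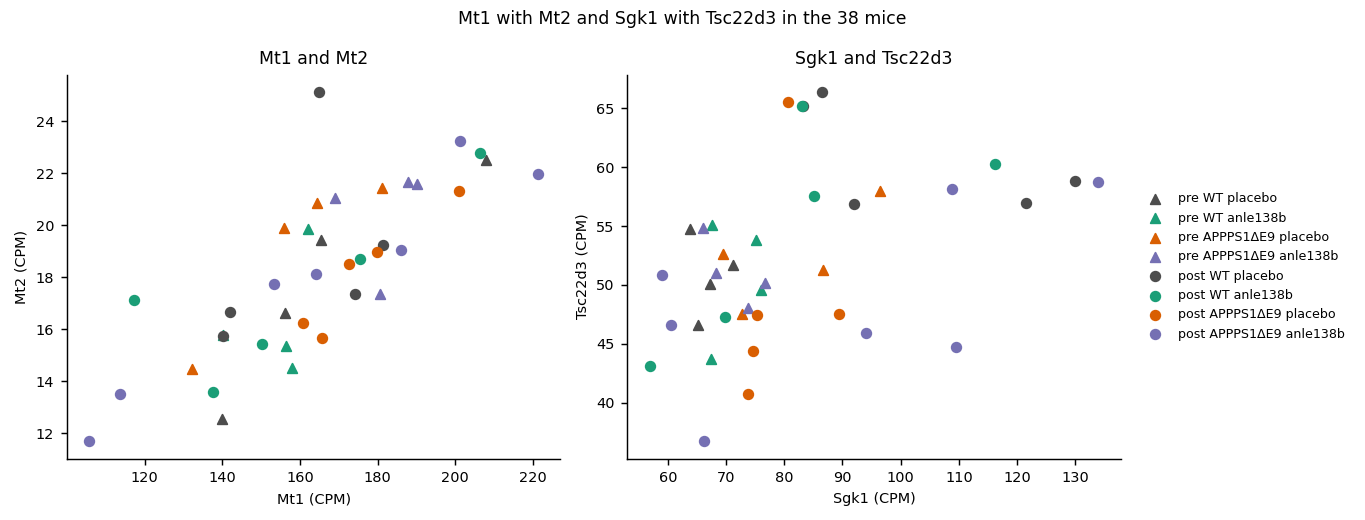
CPM of Mt2 against Mt1 and of Tsc22d3 against Sgk1 in each of the 38 mice, with triangles for pre-plaque and circles for post-plaque mice and colours for genotype and chow (axes do not start at 0). Mt2 rises with Mt1 (r = 0.81 of deviations from group means), while Tsc22d3 spreads widely at a given level of Sgk1 (r = 0.41).

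Fkbp5, a widely used reporter of receptor activity, was then taken as a covariate within groups, to ask which genes change with it between mice of the same group. In that fit 0 of the 9 other members passed, against 0% of 18231 genes, and 0 of 9 had an unadjusted p under 0.05, against 10.1% of all genes. Of the 23 other induced targets, 13 had a positive slope and 0 passed the adjusted threshold. An unadjusted p under 0.05 was found for 4 of the 23, and all 4 had a negative slope. Sgk1 changed by 0.92 log2 units per log2 unit of Fkbp5 (interval −0.07 to 1.90, adjusted p = 0.522) and Zbtb16 by 0.62 (interval −0.01 to 1.25, adjusted p = 0.501). The SD of Fkbp5 itself within groups was 0.104, so that the slopes rest on a narrow range.

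The genes most like Fkbp5 in their deviations from group means were on none of the gene lists used here. Over 38 mice and 15012 genes with a mean of at least 1 CPM, they were Zfp704 (r = 0.68), Fbxo38 (0.67), Cul4a (0.66), Tfdp1 (0.64), Phf20, Senp2 and Cplx2 (0.63 each), Brd7 and Mark3 (0.62 each) and Ptprj (0.61). Among the lowest were Ehbp1l1, Enkd1 and Catsperg1 (−0.64 each) and Zmynd10 (−0.63). Zbtb16 stood at rank 1000 and Sgk1 at rank 1102. In the same ranking for Mt2, a gene chosen for it after its r with Mt1 was seen, Mt1 stood at rank 1.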

How the data were processed

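RNA was extracted with TRIzol from hippocampus, made into TruSeq mRNA libraries, mapped by the authors to mm10 with STAR and counted on genes with HTSeq (intersection-nonempty mode). The deposited files hold raw counts per Ensembl gene, with 1 file per mouse. The annotation release and the use of strand are not given in the sources used here. Groups were taken from the sample titles. Symbols were taken from GENCODE M21, which named 48349 of 48709 identifiers.

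Counts were tested with edgeR 4.0.16 in R 4.3.3 (filterByExpr with a minimum count of 10, TMM, robust quasi-likelihood fits). Pairwise comparisons used the mice of both groups, interactions the 4 groups involved, and the contrasts over all mice gave each of the 8 groups 1 mean. The p-values were adjusted by Benjamini-Hochberg over all genes tested and called under 0.1. CPM values are scaled by TMM, and log2 CPM used a prior count of 2. DESeq2 1.42.0 was an alternative, beside other scaling, no filter, sex-linked, lane and replicate terms, and leaving out each mouse. Covariates of oligodendrocyte and choroid plexus markers, and leaving out the 9 libraries, were chosen after the data were seen.

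The members and the gene lists were chosen with earlier results of these data known. All members were named, and of each other list at most 3 genes higher and 3 lower past the threshold. A few genes that this rule names are not reported here. On simulated counts for the pre-plaque placebo genotypes, edgeR found 186 of 200 genes changed by 1 on the log2 scale and 127 of 200 changed by 0.5, among 16574 and 16608 genes tested, with 23 and 21 false calls. DESeq2 found 189 and 144 of the 200, with 58 and 61 false calls among 16774 genes, and where no gene was changed it made 14 calls against 0 by edgeR. For a slope of 1 on Fkbp5 within groups, edgeR found 74 of 200 genes among 18054. Each of the 75 within-group pairs of libraries differed beyond counting error, with a chi-square of at least 2.99 for each degree of freedom. The labels do not say more of how mice were sampled than their numbers, and p-values measure the spread between these mice. Mouse promoter windows were taken from RefSeq.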

Additional observations from a re-analysis of the deposited data

Results flagged for a closer look

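Over the 80 combinations of gene and group, 3 had a mouse set apart from the rest of its group by Dixon's test, which flags about 1 in 20 groups by chance. Tsc22d3 was 65.55 CPM in mouse 57 of the post-plaque APPPS1ΔE9 placebo group, whose other mice ran from 40.72 to 47.56 CPM. This mouse is 1 of the 9 with low oligodendrocyte markers. Nr3c1 was 105.2 CPM in mouse 99 of the post-plaque APPPS1ΔE9 anle138b group, with the others between 94.4 and 98.33 CPM. Mt2 was 17.33 CPM in mouse 15 of the pre-plaque APPPS1ΔE9 anle138b group, with the others between 21.04 and 21.64 CPM.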

How the results depend on the processing

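Of the 10 genes, 0 were called in each pairwise comparison, and 1 was called under these alternatives, whose causes were not tested. With DESeq2 it was 1 (Mt1) between pre-plaque genotypes on anle138b and 1 (Zbtb16) for chow in pre-plaque APPPS1ΔE9 mice, with 42 (0.131%) and 205 (0.652%) genes called in all. Between post-plaque genotypes on placebo it was 1 (Sgk1) with Y-linked expression as a covariate, with 14 genes called in all (0.0825%). It was 1 (Tsc22d3) both with oligodendrocyte markers as a covariate and without the 9 libraries, with 125 (0.737%) and 51 (0.299%) genes called in all. Leaving out each mouse gave 0 to 1 called for chow in pre-plaque APPPS1ΔE9 mice (1 without mouse 17), 0 to 1 between post-plaque genotypes on placebo (1 without mouse 57), 4 to 6 between the ages, and 0 to 0 in the other comparisons. Without mouse 17 the calls over all genes were 317 (1.84%), and without mouse 57 they were 52 (0.304%). For the ages, leaving out 1 mouse gave between 10941 and 11482 calls over all genes. Between the ages the count of the 10 genes was 3 with choroid plexus markers as a covariate, against 45.7% of all genes. Nr3c2 was added there without post-plaque mouse 57 (0.16, adjusted p = 0.065) or mouse 97 (0.149, adjusted p = 0.0934). Directions between the ages turned for Hsd11b1 (0.167), Mfsd2a (−0.014) and Glul (0.12) without the 9 libraries, for Glul (0.074) with oligodendrocyte markers as a covariate and for Crhr2 (0.258) with choroid plexus markers as a covariate.

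Over all genes, leaving out 1 mouse moved the calls from 12 to between 6 and 205 for pre-plaque placebo genotypes and from 9 to between 6 and 317 for chow in pre-plaque APPPS1ΔE9 mice. The running numbers in the titles did not pair the mice (mean correlation of deviations −0.22 to 0.31, with no comparison above 0.1 in every pair). With the number as a replicate block, 0 of the 10 genes were called in every comparison but that of the ages, where 5 were called, against 64.4% of all genes. The calls over all genes went from 124 to 20 between post-plaque genotypes on anle138b and from 55 to 27 on placebo.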
